A study of Mus musculus with 8 samples.

Results

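Dietary fat crosses the gut wall as chylomicrons, and 10 genes of that route were followed in crypt RNA of Mex3a knockout (KO) mice and littermate controls (WT). The genes were chosen by name out of 55114 genes in the count table: Cd36, Fabp1, Fabp2, Mogat2, Dgat1, Mttp, Apob, Apoa1, Apoa4 and Apoc3. All 10 passed the filter on low counts that left 16109 genes for testing. KO mice (labelled Mex3a-/-) carried the constitutive deletion, which removes the first exon and part of the second exon of Mex3a in every tissue, and WT mice (labelled Ctrl) were their littermates. There were 4 mice of each genotype, all C57BL/6 and 8 weeks old with no treatment given in the labels, and crypts, the pockets that hold the intestinal stem cells, were released from the intestine with EDTA before RNA sequencing. The labels name neither the intestinal segment nor the sex of the mice, and the gene was lost in the whole animal, so the values do not separate the epithelium's own loss of Mex3a from that of other tissues.

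After fat is split in the gut lumen, enterocytes, the absorptive cells that cover the villi, take up fatty acids and monoacylglycerol. Fatty acid-binding proteins carry the acids through the cytosol, acyltransferases rebuild triglyceride at the endoplasmic reticulum, and microsomal triglyceride transfer protein loads it onto apolipoprotein B. The particle gains further apolipoproteins, leaves through the Golgi and enters the lymph. These genes are known as genes of mature enterocytes rather than of the crypt base, and MEX3A is an RNA-binding protein that binds elements in 3'UTRs.

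Between 20324184 and 24726221 reads were counted on genes per WT mouse, and between 23489180 and 30654105 per KO mouse. Mex3a itself had 236 to 328 counts in WT mice and 6 to 28 in KO mice (log2 fold change -4.43, standard error 0.43, adjusted p = 0.0310 by edgeR's quasi-likelihood test, 0.126 in the fit blocked by replicate number and 0.0271 to 0.214 when 1 mouse was left out). Stem cell and Paneth cell genes were abundant in every mouse (Olfm4 at 1305 ± 140 FPKM and Defa24 at 21026 ± 10489 FPKM in WT, SD, n = 4), so the markers that define crypts were present, and the adipocyte markers summed to 0.198 FPKM at most. FPKM is the number of reads per kilobase of gene length, scaled to library size. In each genotype, replicates 1 and 2 carried reads of the Y-linked Ddx3y and replicates 3 and 4 carried Xist.

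The MEX3A element consists of 4 bases that end in AG (the first any base but C, the second G or T), a gap of 0 to 8 bases, and 4 bases that start with T and end in TA, with any base but G between. It was searched on the sense strand in the 3'UTR of each gene's longest protein-coding transcript (GENCODE M21, GRCm38), and was present in 3 of the 10 genes, Apob, Mttp and Cd36, against 74.3% of the 12989 tested genes with a 3'UTR. The other 7 genes have 3'UTRs of 64 to 721 bases, against a median of 1110 bases over tested genes. In the shortest of 5 groups of 3'UTR length, to which all of these but Mogat2 belong, 27.7% of genes held a match. The matches in Apob (exon 29, plus strand of chromosome 12) and Mttp (exon 18, minus strand of chromosome 3) are shown because MEX3A is the deleted factor, with the element's outer letters in capitals and its gap in lower case.
Apob, chr12:8016600-8016612: GTAGactacTATA
Apob, chr12:8016662-8016673: ATAGgaacTATA
Mttp, chr3:138090979-138090993: AGAGcacagtgTTTA
Mttp, chr3:138090807-138090814: TGAGTCTA
Mttp, chr3:138090447-138090455: ATAGtTTTA
Mttp, chr3:138090215-138090229: GTAGctaccacTCTA
Mttp, chr3:138089943-138089950: GGAGTTTA
Cd36 held 7 matches, among them chr5:17782142-17782154 on the minus strand:
Cd36, exon 15: ATAGgttgtTCTA
Apob has 2 matches in a 3'UTR of 285 bases, and Mttp 5 in 1201 bases. A match is a description of the letters and not a measured binding site.

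Promoters were read from RefSeq (GRCm38.p6) from 250 bases before to 50 bases after the start, and 7 of the 10 genes had an entry. The letters CAAAGNNCA, which HNF4 proteins recognise, were found on either strand in Apoa4, Apob and Fabp2, that is in 3 of 7 promoters against 5.28% of the 13844 promoters of tested genes. The stretches are shown because HNF4 factors are known activators of lipid genes in the gut, with the match in capitals on the strand of the gene.
Apoa4, chr9:46240653-46240679: gttctgagaCAAAGTTCAggttggtgg
Apob, chr12:7977565-7977591: cccgggccgTGCCCTTTGgacctttgg
Fabp2, chr3:122894926-122894952: tacatagtgTGCACTTTGaacttgtaa
In Apob and Fabp2 the letters lie on the opposite strand, so that they read from right to left in complement. TATAAA was found in Apob and Fabp1, against 7.87% of promoters. TTTATN, the core of the letters that CDX proteins recognise, was found in Apob, Cd36, Fabp1 and Fabp2, against 26.6% of promoters, and it overlaps TATAAA on the opposite strand in Apob and Fabp1. AGATAA, recognised by GATA factors, was found in 0 of the 7, against 6.89%.

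Of the 10 genes, 4 were higher in KO crypts at an unadjusted p under 0.05 by edgeR's quasi-likelihood test: Apoa1 (3.44-fold), Mogat2 (2.12-fold), Apob (1.79-fold) and Dgat1 (1.28-fold). None was lower at that threshold. Over all 16109 genes, 5.33% were higher at that threshold and 3.05% were lower. All 10 log2 fold changes were positive, from 0.10 for Fabp1 to 1.78 for Apoa1, with a median of 0.86 against -0.02 over all genes tested, of which 46.1% were positive. Without KO replicate 3 the median of the 10 was 0.29, against -0.01 over all genes, and 9 were positive. After Benjamini-Hochberg adjustment over all genes, 0.00621% of genes (Mex3a alone) passed 0.05, and none of the 10 did, with 0.518 as the lowest adjusted p among them. With DESeq2, 5 of the 10 were higher at an unadjusted p under 0.05, against 6.1% of all genes, and none had an adjusted p under 0.05. Only Dgat1 had all 4 KO mice above all 4 WT mice, against 2.17% of genes tested.

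**Figure D1:**
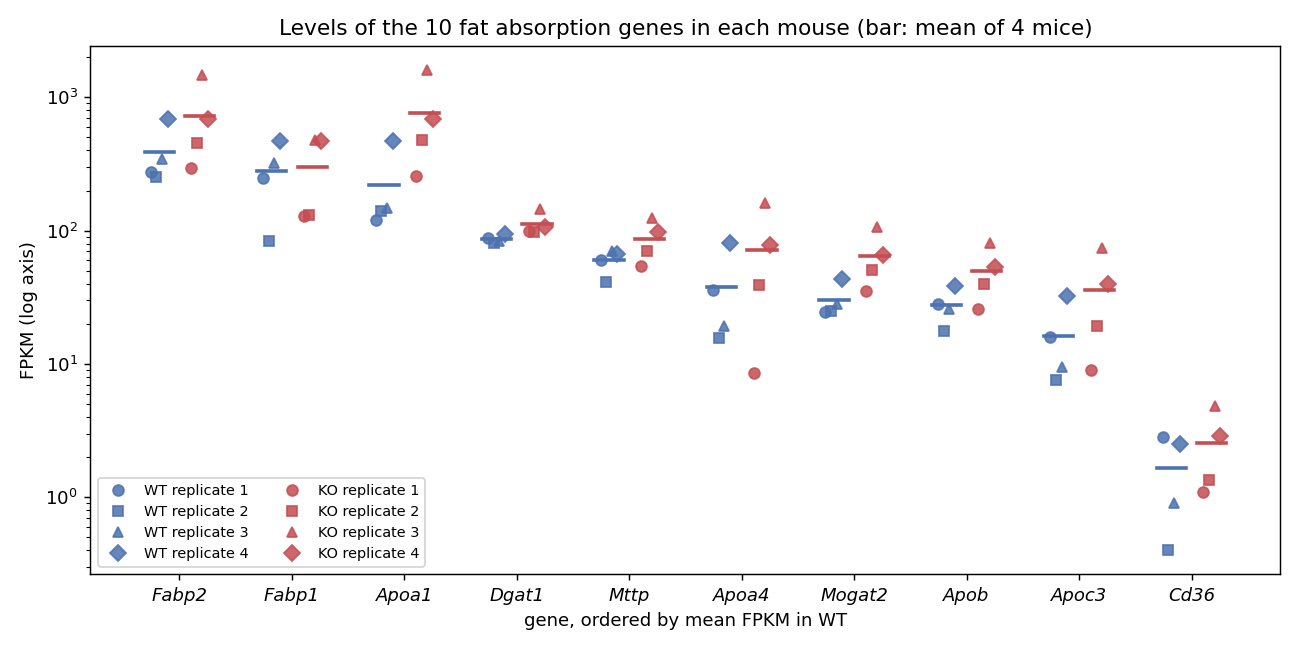
FPKM of each gene (log axis) in each of the 4 WT mice (blue) and 4 KO mice (red), with a bar at the genotype mean and 1 marker shape per replicate number. KO replicate 3 is the highest mouse for all 10 genes, and the genotypes overlap for every gene but Dgat1.

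The same mice stood at the ends for most genes. KO replicate 3 had the highest level of all 10 genes, WT replicate 4 the highest WT level of 8, WT replicate 2 the lowest WT level of 8 and KO replicate 1 the lowest KO level of 9. Together the 10 genes took 0.135% to 0.293% of all reads on genes in WT mice and 0.179% to 0.631% in KO mice. Their summed level was 902, 662, 1055 and 1980 FPKM in WT replicates 1 to 4 and 912, 1380, 4237 and 2285 FPKM in KO replicates 1 to 4. KO replicates 2, 3 and 4 lay above the 3 lower WT mice, and KO replicate 1 lay among them. Without KO replicate 3, 2 of the 10 genes, Mogat2 and Dgat1, were higher at an unadjusted p under 0.05, against 2.99% of all genes in that fit. Without WT replicate 2 there were also 2, Apoa1 and Mogat2, against 4.38%, and without KO replicate 1 there were 7, against 7.94%. The share of all genes called therefore moved with the mouse left out as well.

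By level per length in WT crypts, Fabp2 came first (390 ± 201 FPKM), followed by Fabp1 (281 ± 160), Apoa1 (219 ± 166), Dgat1 (86.9 ± 5.7), Mttp (59.9 ± 13), Apoa4 (38.0 ± 30.2), Mogat2 (30.2 ± 8.9), Apob (27.6 ± 8.5), Apoc3 (16.3 ± 11.2) and Cd36 (1.66 ± 1.19; SD, n = 4 mice each). The ranges of neighbours in that order overlapped except between Apoa1 and Dgat1, Dgat1 and Mttp, and Apoc3 and Cd36. In KO crypts Apoa1 came first (756 ± 592 FPKM, SD, n = 4), above Fabp2 in 3 of 4 mice, and the other 8 kept their order. There the ranges of neighbours overlapped except between Apoc3 and Cd36.

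Uptake of fatty acids was represented by Cd36, a membrane protein that binds long-chain fatty acids (ENSMUSG00000002944; chr5:17781690-17888801, minus strand). Its level was 2.85, 0.401, 0.909 and 2.49 FPKM in WT replicates 1 to 4, and 1.09, 1.35, 4.84 and 2.90 FPKM in KO replicates 1 to 4. These rest on 31 to 403 counts. The genotypes overlapped, with KO replicates 3 and 4 above every WT mouse and WT replicates 2 and 3 below every KO mouse. On the log2 scale Cd36 differed by 0.60, with a standard error of 0.64 (unadjusted p = 0.370 by edgeR), and the value ran from 0.09 without KO replicate 3 to 0.99 without WT replicate 1. Cd36 is also a gene of endothelium and fat cells, whose marker lists summed to 0.368 to 1.67 FPKM and 0.0399 to 0.198 FPKM over the 8 mice. The macrophage and myeloid markers summed to 14.8 to 24.4 FPKM, and which cells gave the Cd36 reads was not tested.

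Fabp2, the intestinal fatty acid-binding protein (ENSMUSG00000023057; chr3:122895072-122899506, plus strand), stood at 277, 251, 347 and 684 FPKM in WT mice and at 293, 451, 1463 and 685 FPKM in KO mice. KO replicate 3 lay far above the other 7 mice, and KO replicate 4 and WT replicate 4 were level. The log2 fold change was 0.88 with a standard error of 0.49 (unadjusted p = 0.107 by edgeR), and it was 0.28 without KO replicate 3 and 1.30 without WT replicate 4. Fabp2 was called in 4 of 18 alternative fits: with no filter, with the Xist/Y covariate, without WT replicate 4 and without KO replicate 1. Fabp1, the form shared with liver (ENSMUSG00000054422; chr6:71199827-71205023, plus strand), stood at 248, 84.1, 321 and 469 FPKM in WT mice and at 128, 132, 475 and 471 FPKM in KO mice. Its log2 fold change of 0.10 had a standard error of 0.57 (unadjusted p = 0.869 by edgeR), and its sign turned without KO replicate 3 (-0.21), without KO replicate 4 (-0.20), without WT replicate 2 (-0.21) and with Xist/Y group as a covariate (-0.05). Fabp1 over Fabp2 within a mouse was 0.335 to 0.923 in WT and 0.293 to 0.688 in KO, so the ranges of this ratio overlapped.

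Mogat2, the acyltransferase that joins a fatty acid to monoacylglycerol (ENSMUSG00000052396; chr7:99219084-99238619, minus strand), was 24.4, 24.9, 28.1 and 43.3 FPKM in WT mice, a mean of 30.2 ± 8.9 (SD, n = 4). It was 35, 50.3, 105.9 and 65.5 FPKM in KO mice, a mean of 64.2 ± 30.5 (SD, n = 4). KO replicates 2, 3 and 4 lay above every WT mouse, and KO replicate 1 lay below WT replicate 4 only. The log2 fold change was 1.08 with a standard error of 0.32 (unadjusted p = 0.0082 and adjusted p = 0.518 by edgeR), and the two-sided exact permutation test of log2 CPM gave p = 0.0571. CPM is the count scaled to the normalised library size. Of the 10 genes, Mogat2 alone kept an unadjusted p under 0.05 in all 18 alternative fits, with log2 fold changes from 0.73 without KO replicate 3 to 1.31 without WT replicate 4.

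Dgat1, which adds the last fatty acid to make triglyceride (ENSMUSG00000022555; chr15:76502015-76511953, minus strand), was 88.8, 80.7, 84.1 and 93.9 FPKM in WT mice, a mean of 86.9 ± 5.7 (SD, n = 4). In KO mice it was 99.8, 97.5, 144.5 and 105.6 FPKM, a mean of 111.8 ± 22.0 (SD, n = 4). It varied least of the 10 genes, with a coefficient of variation of 6.61% in WT and 19.7% in KO, and every KO mouse lay above every WT mouse. For Dgat1 the log2 fold change was 0.36 with a standard error of 0.13 (unadjusted p = 0.0223 and adjusted p = 0.545 by edgeR). The two-sided exact permutation test gave p = 0.0286, the smallest value that 70 assignments of 8 mice allow. The unadjusted p was 0.0571 by edgeR without WT replicate 2, and the log2 fold change was 0.21 without KO replicate 3.

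Mttp, the large subunit of the microsomal triglyceride transfer protein (ENSMUSG00000028158; chr3:138089854-138144968, minus strand), carries 5 of the MEX3A element matches printed above. Its level was 60.2, 41.5, 70.9 and 66.9 FPKM in WT mice and 54.6, 70.8, 125.1 and 97.3 FPKM in KO mice. KO replicates 3 and 4 lay above every WT mouse and KO replicate 1 below 3 of them. The log2 fold change was 0.53 with a standard error of 0.26 (unadjusted p = 0.0674 by edgeR), and 0.30 without KO replicate 3. With the replicate number as a block, under which 7.14% of all genes were higher at an unadjusted p under 0.05, Mttp was called too (log2 fold change 0.49, unadjusted p = 0.0210, adjusted p = 0.350), and the number of genes called of the 10 was 5. The block changed the call of none of the other 9.

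Apob, the scaffold of the chylomicron (ENSMUSG00000020609; chr12:7977648-8016835, plus strand), was 28.4, 17.8, 26.0 and 38.4 FPKM in WT mice, a mean of 27.6 ± 8.5 (SD, n = 4). It was 25.8, 39.8, 80.1 and 53.6 FPKM in KO mice, a mean of 49.8 ± 23.1 (SD, n = 4). KO replicates 2, 3 and 4 exceeded the highest WT mouse, and KO replicate 1 lay within the WT range. For Apob the log2 fold change was 0.84 with a standard error of 0.34 (unadjusted p = 0.0332 and adjusted p = 0.561 by edgeR), and the two-sided exact permutation test gave p = 0.143. Its call was lost in 8 of 18 alternative fits, with a log2 fold change of 0.52 and an unadjusted p of 0.113 by edgeR without KO replicate 3. Mttp over Apob within a mouse was 1.74 to 2.73 in WT and 1.56 to 2.12 in KO.

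Apoa1, Apoc3 and Apoa4 lie side by side within 14880 bases of chromosome 9 (chr9:46228580-46243459), with Apoc3 on the minus strand between the other two. Apoa1, the main protein of high-density lipoprotein and a chylomicron coat protein (ENSMUSG00000032083; chr9:46228580-46230466, plus strand), was 121, 139, 148 and 468 FPKM in WT mice and 257, 479, 1604 and 685 FPKM in KO mice. The 3 KO mice with replicate numbers 2, 3 and 4 exceeded every WT mouse, and KO replicate 1 exceeded all WT mice but replicate 4. It had the largest log2 fold change of the 10, 1.78 with a standard error of 0.61 (unadjusted p = 0.0167 and adjusted p = 0.520 by edgeR), and the two-sided exact permutation test gave p = 0.0571. The log2 fold change was 1.10 without KO replicate 3 (unadjusted p = 0.0614 by edgeR, the only alternative of 18 in which the call was lost) and 2.47 without WT replicate 4.

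Apoa4, a chylomicron apolipoprotein that enterocytes secrete in response to fat (ENSMUSG00000032080; chr9:46240696-46243459, plus strand), was 35.7, 15.7, 19.2 and 81.4 FPKM in WT mice and 8.49, 38.8, 160.5 and 78.4 FPKM in KO mice. KO replicate 1 was the lowest and KO replicate 3 the highest of all 8 mice, a 19.0-fold span in CPM within 1 genotype. Its log2 fold change was 0.90 with a standard error of 0.78 (unadjusted p = 0.277 by edgeR), 0.13 without KO replicate 3 and 1.59 without WT replicate 4. Apoc3, an inhibitor of lipoprotein lipase (ENSMUSG00000032081; chr9:46232933-46235636, minus strand), was 15.8, 7.60, 9.46 and 32.3 FPKM in WT mice and 9.07, 19.4, 74.5 and 39.9 FPKM in KO mice. Its log2 fold change was 1.12 with a standard error of 0.64 (unadjusted p = 0.113 by edgeR), and KO replicate 1 lay within the WT range. It was 0.48 without KO replicate 3 and 1.70 without WT replicate 4, where Apoc3 was called (unadjusted p of 0.0289 by edgeR's quasi-likelihood test), as it was without KO replicate 1 (0.0326).

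**Figure D2:**
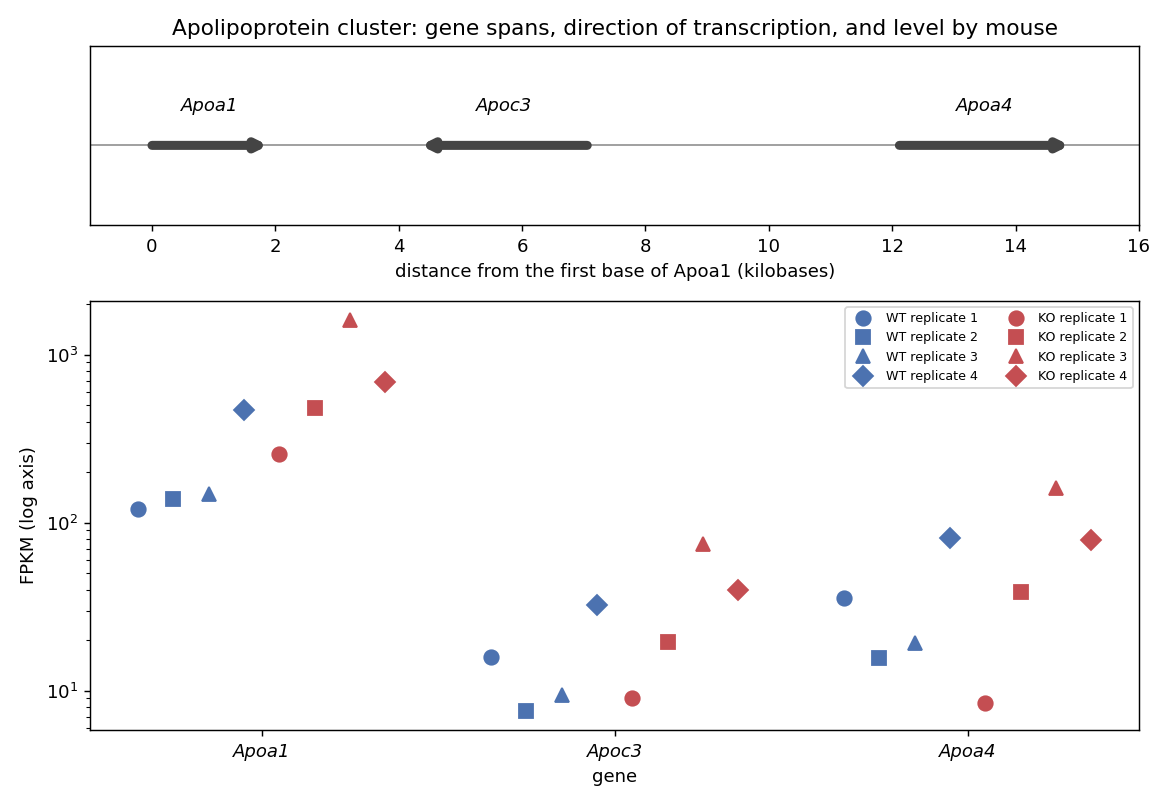
Upper panel: spans of Apoa1, Apoc3 and Apoa4 in kilobases from the first base of Apoa1, with arrows in the direction of transcription. Lower panel: FPKM (log axis) of each gene in the 4 WT mice (blue) and 4 KO mice (red). Apoa1 lies above the other genes of the cluster in every mouse, and the mice keep a similar order in Apoc3 and Apoa4.

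Apoa1 over Apoc3 was 7.67 to 18.3 in WT and 17.2 to 28.3 in KO mice, and Apoa1 over Apoa4 was 3.39 to 8.85 in WT and 8.73 to 30.2 in KO mice, so each pair of ranges met only at its edge. Apoa4 over Apoc3 was 2.03 to 2.52 in WT mice, 0.936 in KO replicate 1 and 1.97 to 2.15 in the other KO mice. The ranges of all 3 ratios overlapped, and their differences were not tested. Apoa5, which lies 40053 bases from the start of Apoa1, had 1 count in 1 mouse and 0 in the other 7.

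Matched by replicate number, Apoa1, Mogat2 and Dgat1 were higher in the KO mouse of 4 of 4 pairs. Apob, Apoc3, Mttp, Fabp2 and Cd36 were higher in 3 of 4 and Apoa4 and Fabp1 in 2 of 4. The share of all genes higher in 4 of 4 pairs was not counted, so these counts are a description only. For Apoa1 the ratios of KO to WT CPM were 2.09, 3.42, 10.9 and 1.46 in pairs 1 to 4. The third pair gave the highest ratio for 9 of the 10 genes. Fabp1 was the exception, with 1.56 in the second pair and 1.48 in the third.

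**Figure D3:**
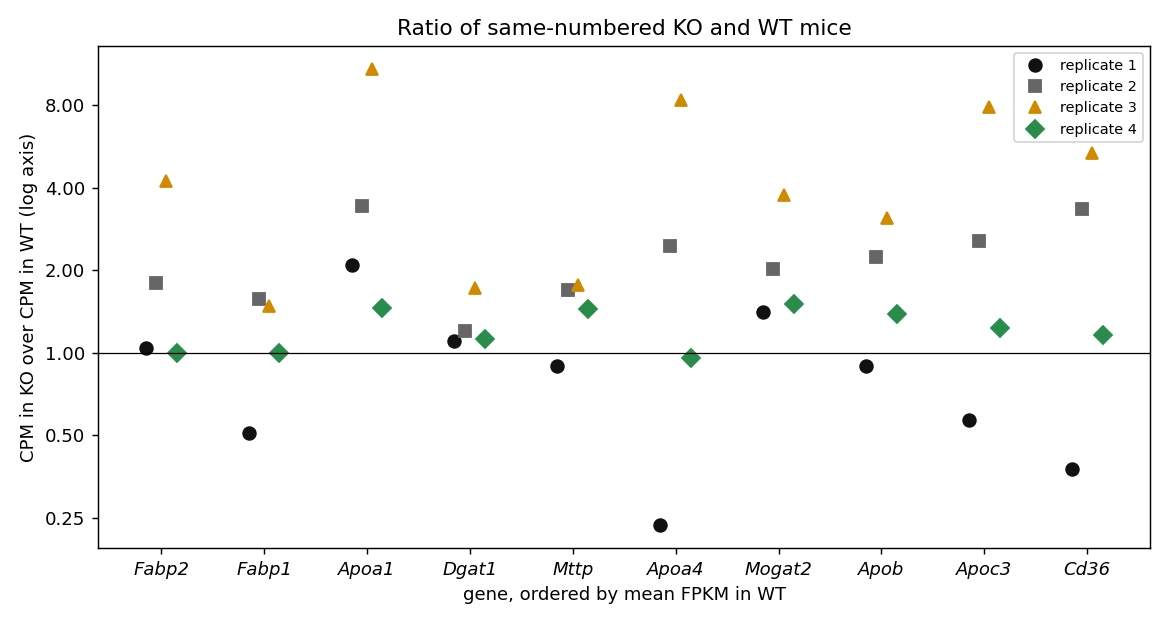
Ratio of the CPM of the KO mouse to that of the WT mouse of the same replicate number (log axis; 1 means equal) for each of the 10 genes. All 4 pairs lie above 1 for Apoa1, Mogat2 and Dgat1, and the first pair lies below 1 for 6 genes.

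Replicates 3 and 4, which carried Xist, and replicates 1 and 2, which carried Ddx3y, were also compared apart, with 2 mice of each genotype in either set. Within the Ddx3y mice the log2 fold changes were 1.42 for Apoa1, 0.75 for Mogat2, 0.50 for Apob and 0.21 for Dgat1, and 2 of the 10 were negative, Apoa4 (-0.40) and Fabp1 (-0.16). Within the Xist mice they were 1.99, 1.25, 1.05 and 0.47 in the same order, and all 10 were positive. All 10 genes had the larger value in the Xist mice, but no difference between the sets passed an unadjusted p of 0.05 (0.196 to 0.637 by edgeR's interaction term, chosen after seeing the data). With Xist/Y group as a covariate, 6 of the 10 were higher at an unadjusted p under 0.05, Mttp and Fabp2 besides the 4, against 7.26% of all genes.

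Over the 8 mice the 10 genes varied together. Pearson's r of log2 CPM was 0.50 to 0.99 over the 45 pairs of genes, with a median of 0.86, and these points share libraries and genotype. Apoa1 and Mogat2 were the closest pair (0.99), although they lie on different chromosomes, and Fabp1 had the lowest median r with the others (0.74). The protein-coding genes outside the 10 whose log2 CPM most resembled the mean of the 10 were Unc93a2 (r = 0.995, Spearman's rho 1.0), Cgref1 (0.992, rho 1.0), Treh (0.988, rho 0.976), Soat2 (0.985, rho 0.952) and Gdpd2 (0.985, rho 1.0). Without KO replicate 3 and WT replicate 2, the mice farthest from the median, r was 0.946 to 0.993 for these. Treh encodes the brush border enzyme trehalase and Soat2 the enzyme that esterifies cholesterol for chylomicrons.

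Enterocyte genes moved with these genes. The 12 enterocyte markers summed to 615, 585, 707 and 1227 FPKM in WT replicates 1 to 4 and to 868, 1092, 2508 and 1773 FPKM in KO replicates 1 to 4. Of the 12, 6 were higher at an unadjusted p under 0.05 by edgeR, against 5.33% of all genes, and none was lower. Their median log2 fold change was 1.19. The aminopeptidase gene Anpep was 161 ± 106 FPKM in WT and 428 ± 249 in KO, the microvillus gene Vil1 204 ± 41.3 and 308 ± 93.1, and the keratin gene Krt20 93.7 ± 53.8 and 195 ± 69.5 (SD, n = 4 mice each). The summed level of the 10 fat absorption genes per unit of the enterocyte markers was 1.47, 1.13, 1.49 and 1.61 in WT mice and 1.05, 1.26, 1.69 and 1.29 in KO mice, so the genotypes overlapped on this scale.

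**Figure D4:**
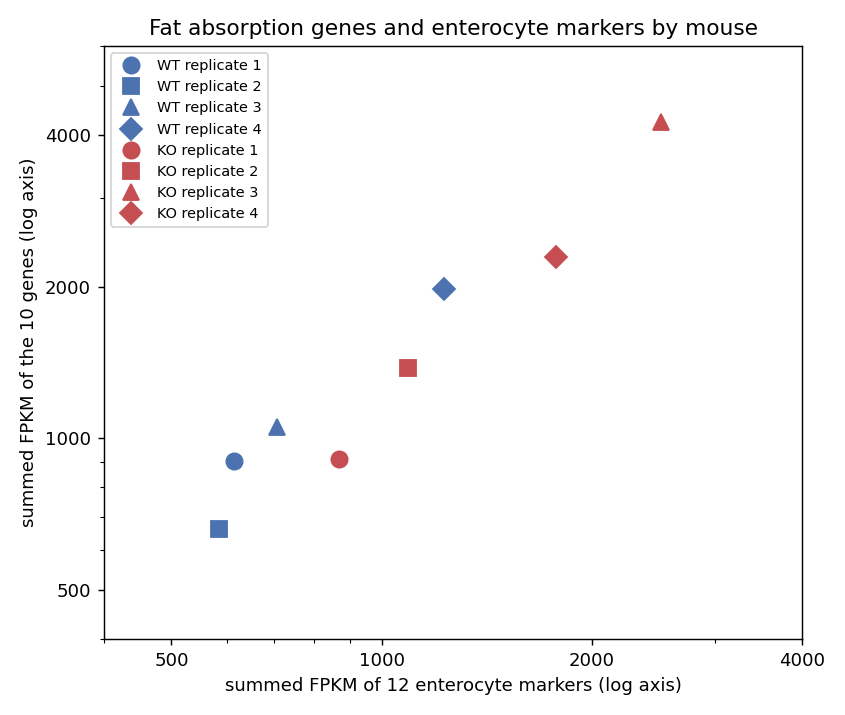
Summed FPKM of the 10 fat absorption genes against summed FPKM of the 12 enterocyte markers (both log axes), 1 point per mouse, WT in blue and KO in red. Mice with more enterocyte marker RNA mostly had more fat absorption RNA, though KO replicate 1 (868 and 912 FPKM) has more marker RNA and less fat absorption RNA than WT replicate 3 (707 and 1055 FPKM), and KO replicate 3 is the highest on both axes.

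Set against the same marker sum, Mogat2 was 0.0353 to 0.0425 in WT and 0.0369 to 0.0461 in KO mice, and Apob was 0.0304 to 0.0462 in WT and 0.0297 to 0.0365 in KO. Dgat1 was 0.0765 to 0.145 in WT and 0.0576 to 0.115 in KO, and Mttp was 0.0545 to 0.10 in WT and 0.0499 to 0.0649 in KO. Apoa1 was 0.197 to 0.381 in WT and 0.296 to 0.640 in KO, with 3 of 4 KO mice above the highest WT mouse. Fabp1 was 0.144 to 0.453 in WT (mean 0.346) and 0.121 to 0.266 in KO (mean 0.181), and Fabp2 was 0.428 to 0.558 in WT and 0.338 to 0.583 in KO. Apoa4 was 0.0269 to 0.0664 in WT and 0.00978 to 0.0640 in KO, Apoc3 was 0.0130 to 0.0263 and 0.0104 to 0.0297, and Cd36 was 0.000685 to 0.00464 and 0.00123 to 0.00193. The ranges of the genotypes overlapped for all 10 genes on this scale, and the differences were not tested. In bulk RNA of crypts, more cells of a type and more RNA of a gene per cell cannot be told apart.

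Other marker lists moved as well, and their part in the result was not tested. Over all genes, 5.33% were higher and 3.05% lower at an unadjusted p under 0.05 by edgeR. The 7 ileum markers summed to 86.4 to 651 FPKM in WT mice and 655 to 1370 FPKM in KO mice, without overlap. Of these, 6 were higher at an unadjusted p under 0.05 by edgeR, among them the ileal bile acid-binding gene Fabp6 (370 ± 236 FPKM in WT and 942 ± 280 in KO, SD, n = 4). The proximal small intestine markers, with 0 of 5 tested past the threshold, summed to 74.9 to 118 FPKM in WT and 78.6 to 168 FPKM in KO. Crypt base stem cell markers were lower in KO mice for 4 of 7 genes and higher for none, with Olfm4 at 1034 ± 124 FPKM in KO (SD, n = 4), and their sum was 1384 to 1666 FPKM in WT and 1035 to 1314 in KO.

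The Paneth cell markers summed to 22844 to 73424 FPKM in WT and 11148 to 40428 FPKM in KO, with 0 of 6 past the threshold. None of the 6 had a positive log2 fold change (median -0.72). Proliferation markers had 0 of 8 past the threshold, with a median log2 fold change of -0.03. Of the goblet cell markers, 2 of 7 were higher. The T and B lymphocyte markers summed to 2.30 to 4.47 FPKM in WT and 4.53 to 10.9 FPKM in KO, with 2 of 6 higher, and stroma to 1.73 to 4.44 FPKM over all mice. Of the remaining lists, enteroendocrine cells had 1 of 8 genes higher, blood 1 of 1 tested gene lower, and tuft cells, myeloid cells, endothelium, stroma, adipocytes and colon 0 past the threshold. None of the 4 tested tuft cell markers had a positive log2 fold change (median -0.56). With the replicate block, under which 7.14% of all genes were higher, enterocyte markers had 8 higher and goblet cell markers 4. Paneth and tuft cell markers then had 2 lower each, enteroendocrine and proximal small intestine markers 1 lower and none higher, and myeloid, stroma and colon markers 1 higher each. The counts of the other marker lists did not move. The colon genes Hoxb13 and Hoxd13 had no counts in any mouse. The share of reads on mitochondrial genes was 6.60% to 11.6% in WT and 5.63% to 8.87% in KO.

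Beyond the 10 genes, 53 others of fat absorption and export were listed by role, and 49 had enough counts to be tested. Of these, 11 were higher and 1 was lower in KO crypts at an unadjusted p under 0.05 by edgeR, against 5.33% and 3.05% of all genes. None had an adjusted p under 0.05, and the median log2 fold change was 0.16. With DESeq2, Npc1l1 (adjusted p = 0.00498) and Tm6sf2 (adjusted p = 0.0376) did pass after adjustment, as 2 of 93 genes in all. The replicate block called 16 higher, against 7.14% of all genes, and 2 lower. The counts by role that follow stand against the same shares. The ratio of KO to WT means of the summed FPKM was 1.18 over the 53 genes and 1.92 over the 10, among which it was 3.04 for the 4 apolipoproteins and 1.45 to 1.53 for the other roles. It was 1.68 for intestinal sterol handling and 1.01 to 1.19 for the other roles of the 53. The 4 apolipoproteins summed to 201, 180, 203 and 620 FPKM in WT replicates 1 to 4 and to 300, 577, 1919 and 857 FPKM in KO replicates 1 to 4. Their ratio of means thus leans on WT replicate 4 and KO replicate 3.

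Intestinal sterol handling had the highest median of these roles: 4 of 5 genes were higher, with a median log2 fold change of 0.72. Npc1l1, the cholesterol importer of the brush border, was 33.4, 29.2, 32.7 and 37.5 FPKM in WT and 46.7, 57.9, 88.7 and 49.2 FPKM in KO mice, all KO mice above all WT mice. Its log2 fold change of 0.86 had a standard error of 0.19 (unadjusted p = 0.0015 and adjusted p = 0.502 by edgeR), and it kept an unadjusted p under 0.05 in all 18 alternative fits. Abcg5 and Abcg8, partners in the transporter that returns sterols to the lumen, had log2 fold changes of 0.67 ± 0.22 and 0.62 ± 0.25 (± standard error), and Soat2 had 0.72 ± 0.29. Without KO replicate 3, only Npc1l1 and Abcg5 passed (2 of 5), with 0.42 for Soat2 (unadjusted p = 0.118 by edgeR) and 0.41 for Abcg8 (0.108), and there were also 2 when WT replicate 1, 2 or 3 or KO replicate 4 was left out.

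In fatty acid uptake and activation, 3 of 9 log2 fold changes were positive, with a median of -0.01. In that role 1 gene was higher (2 higher and 1 lower with the replicate block), the acyl-CoA synthetase gene Acsl5. Its level was 48.0 ± 9.3 FPKM in WT and 73.5 ± 27.1 in KO (SD, n = 4), a log2 fold change of 0.61. Acsl5 was called in 14 of 18 alternative fits and not without KO replicate 3 (0.33, unadjusted p = 0.0808 by edgeR). Dbi, the acyl-CoA-binding protein gene and the most abundant of that role, was 214 ± 15.8 FPKM in WT and 214 ± 17.4 in KO (SD, n = 4). In triglyceride and phospholipid synthesis, 3 of 11 tested genes were higher: Agpat2 (log2 fold change 0.41), Lpin3 (0.45) and Gpat3 (0.49), enzymes of the glycerol phosphate route. Gpat3 lost its call with the replicate block (unadjusted p = 0.0643 by edgeR) and without KO replicate 3 (log2 fold change 0.26, unadjusted p = 0.120) and was called in 10 of 18 alternative fits, against 15 for Lpin3 (unadjusted p = 0.0675 by edgeR without KO replicate 3) and 18 for Agpat2. Agpat2 was 33.1 to 39.1 FPKM in WT and 41.0 to 56.9 FPKM in KO, without overlap. Lpcat3, which remodels phospholipids, was 42.5 ± 6.1 FPKM in WT and 46.5 ± 7.0 in KO (SD, n = 4).

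Chylomicron assembly and export had 1 of 13 genes higher, and 4 with the replicate block. Tm6sf2, a membrane protein needed to load lipid onto apolipoprotein B particles, was 32.4, 33.1, 34.6 and 38.7 FPKM in WT and 40.4, 52.7, 72.8 and 50.4 FPKM in KO mice. Every KO mouse lay above every WT mouse, and the log2 fold change was 0.63 with a standard error of 0.16 (unadjusted p = 0.0031 and adjusted p = 0.518 by edgeR). P4hb, the small subunit that pairs with Mttp and a general disulfide isomerase, was 345 ± 11.2 FPKM in WT and 400 ± 58.2 in KO (SD, n = 4; unadjusted p = 0.0955 by edgeR). Of the lipid droplet genes, Plin3 (log2 fold change 0.32) and the lipase gene Pnpla2 (0.25) were higher and Plin2 (-0.29), the droplet coat gene, was lower, 3 of 8 in all. Pnpla2 was called in all 18 alternative fits, Plin2 in 13 (unadjusted p = 0.108 by edgeR without WT replicate 3) and Plin3 in 11 (log2 fold change 0.18, unadjusted p = 0.110 without KO replicate 3). Among the other 6 apolipoproteins, 3 were tested and 0 passed the threshold, 1 with the replicate block. The most abundant of them, Apoe, was 16.5 ± 2.2 FPKM in WT and 15.7 ± 3.8 in KO (SD, n = 4).

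Of 19 transcription factors and cofactors known to act on these genes, 3 were higher at an unadjusted p under 0.05 by edgeR, against 5.33% of all genes. None was lower (1 with the replicate block), and the median log2 fold change was 0.09. Hnf4a, whose letters were found in 3 of the promoters, was 243 ± 23.7 FPKM in WT and 237 ± 11.8 in KO (SD, n = 4; log2 fold change -0.04, standard error 0.09). The fatty acid receptor gene Ppard was 21.4 ± 0.8 FPKM in WT and 24.2 ± 0.9 in KO (SD, n = 4), and the bile acid receptor gene Nr1h4 was 21.2 ± 5.6 and 28.3 ± 2.5 FPKM (SD, n = 4). Maf, a factor of enterocyte maturation, had the largest change of the list (log2 fold change 1.10, standard error 0.40, unadjusted p = 0.0216 by edgeR), with 3.51 to 9.57 FPKM in WT and 6.64 to 21.3 FPKM in KO mice. Maf and Ppard were each called in 14 of 18 alternative fits and Nr1h4 in 12. Without KO replicate 3 the log2 fold change of Maf was 0.77 (unadjusted p = 0.0699 by edgeR).

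**Figure D5:**
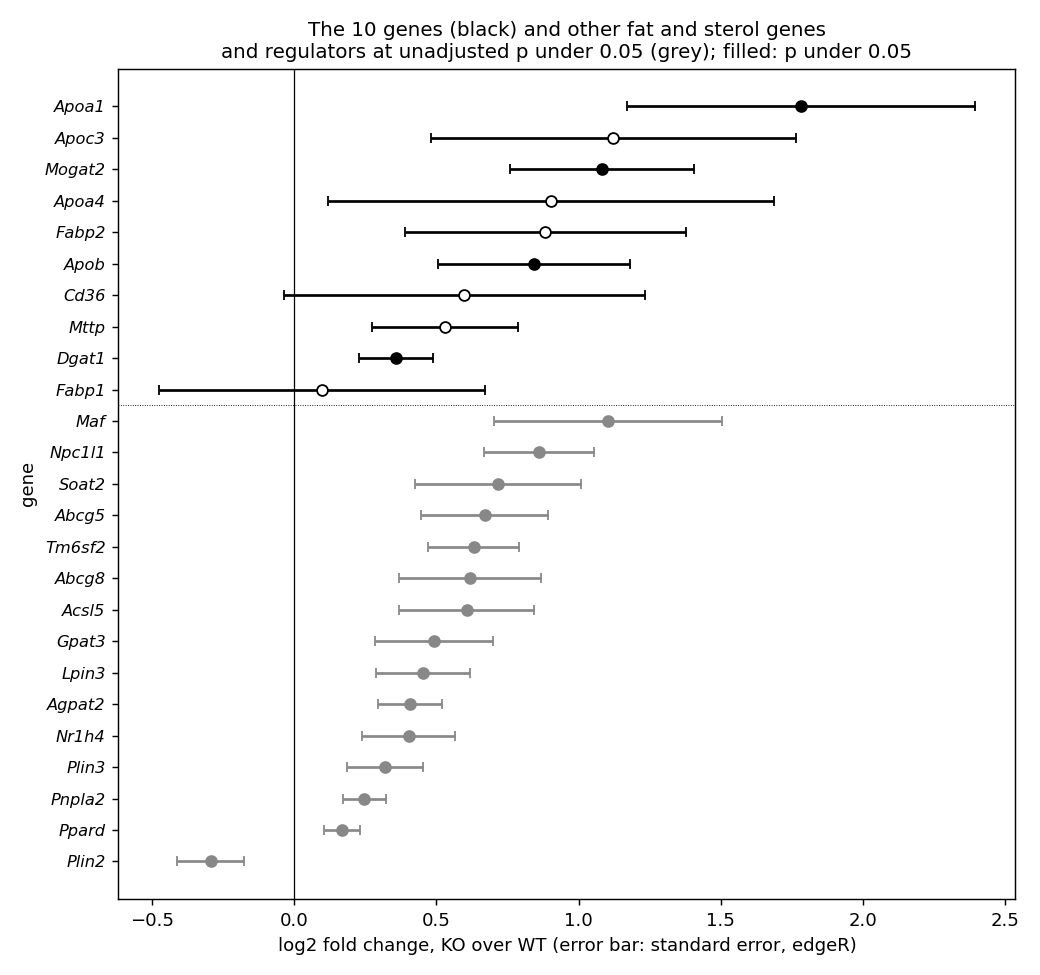
Log2 fold change of KO over WT with its standard error (edgeR) for the 10 fat absorption genes (black, upper part) and for the other fat and sterol genes and regulators with an unadjusted p under 0.05 (grey, lower part); filled points passed that threshold. The 10 genes run from 0.10 to 1.78, and Plin2 is the lower part's only gene below 0.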

How the data were processed

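RNA of crypts from 4 WT and 4 KO mice was analysed, assigned by the labels. The authors deposited whole-number read counts per gene, not normalised, with FPKM values, which the authors made by dividing counts by gene length and a scaled library size (0.961 to 1.05 times the total count, close to the TMM factors). HISAT2 2.0.5, featureCounts 1.5.0-p3 and CASAVA are named in the submitters' processing notes. Whether counting used strand is not given in the sources used here. Coordinates are those of GRCm38. The authors' fold changes and p-values were not used.

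Counts were tested with edgeR 4.0.16 (R 4.3.3; filterByExpr with a minimum count of 10, TMM factors, quasi-likelihood test, genotype only) and adjusted by Benjamini-Hochberg over 16109 genes; a call is an unadjusted p under 0.05, and adjusted values stand beside it. Standard errors are the log2 fold change over the root of F. DESeq2 1.42.0 and limma 3.58.1 on log2(FPKM + 1) and log2(FPKM + 0.1) served as alternatives. The tests were checked on simulated counts. Single genes were also tested by exact permutation over 70 assignments of the mice. Genes without a name, identifiers of the authors' own, took 0.192% to 0.284% of counts and stayed in the fit. Named were the 10 genes, Mex3a, each other pathway gene or regulator with an unadjusted p under 0.05 or the highest level of its role, up to 3 markers per list by level, and the 5 genes most like the 10; Xist, Ddx3y, Apoa5 and the colon genes at 0 were named besides, after their values were seen. The 10 genes and all lists were chosen with earlier results of these data known.

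Replicate numbers are shared between genotypes and the controls are littermates, but no source says that a number marks a litter. Once the mean of the genotype was removed, the 4 pairs of mice with 1 number had correlations of 0.134 to 0.552 over tested genes (0.0872 to 0.530 over autosomal genes). The numbers were therefore also used as a block in an alternative fit and for the ratios of same-numbered mice. The main fit and the permutation tests left the mice unpaired. No libraries of a genotype were alike within sampling error (the chi-square over its degrees of freedom was 23.8 to 88.5).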

Additional observations from a re-analysis of the deposited data

Results flagged for a closer look

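Apoa1 in WT replicate 4 stood apart from the other 3 WT mice, at 468 FPKM against 121 to 148 FPKM, and the gap took 0.922 of the whole WT range. The summed endothelium markers were also apart in WT replicate 4, at 1.67 FPKM against 0.418 to 0.611 FPKM, with a gap of 0.847 of the range. These were 2 of 96 groups of 4 mice examined, and chance alone flags about 1 in 20. Before adjustment only, the effect of genotype on Mex3a differed between the mice with Xist and those with Ddx3y reads (unadjusted p = 0.000322 and adjusted p = 0.687 by edgeR's interaction term, 31 named genes examined). It rests on low counts, 6 and 8 in the Xist-carrying KO mice against 20 and 28 in the other KO mice. None of the 10 fat absorption genes showed such a difference at an unadjusted p under 0.05.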

How the results depend on the processing

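Of the 10 genes, 3 to 6 were higher at an unadjusted p under 0.05 when the tool, the factors, the filter or a covariate was changed and 2 to 7 when 1 mouse was left out, against 4 in the main comparison, and none was lower or passed an adjusted p of 0.05 in any of the 18 alternatives. Of the other pathway genes and regulators, 11 to 20 were higher, or 6 to 19 when 1 mouse was left out, against 14. Over all genes, 1 had an adjusted p under 0.05, against 93 with DESeq2, 4 with the Xist/Y covariate and 2 with no filter. There were 0 with at least 10 counts in every mouse, a filter that removed Mex3a before testing. With the replicate block there were 0, and 0 to 4 when 1 mouse was left out. The unadjusted count was 1350, against 846 without KO replicate 3, 2133 without KO replicate 1 and 1815 with the block. On CPM the summed level of the 10 genes was 1.85 times higher in KO, against 1.92 on FPKM. The log2 fold change of Fabp1 turned sign with the Xist/Y covariate (-0.0536) and when WT replicate 2 (-0.206), KO replicate 3 (-0.209) or KO replicate 4 (-0.202) was left out, and over single mice left out it ran from -0.209 to 0.465. Dbi, Apoe and Hnf4a, all near 0, also turned sign when 1 mouse was left out, with ranges of -0.0512 to 0.0352, -0.237 to 0.0240 and -0.0801 to 0.0279; the cause was not tested. Among genes named with a p-value, the replicate block changed the calls of Mttp (gained), Gpat3 (lost) and, after adjustment, Mex3a (lost, adjusted p = 0.126 by edgeR). Low counts limit Cd36, with 31 counts in 1 mouse.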
